A study of Mus musculus with 9 samples.

Results

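Transcripts of 10 genes of surface ectoderm and endoderm epithelia were followed in GFP+ and GFP- cells sorted from mouse somites. The tissue was dissected at embryonic day 9.5 between the limb levels, with the aim of taking the hypaxial dermomyotome. The genes were the adhesion molecules Epcam and Cdh1, the claudins Cldn6 and Cldn7, the keratins Krt8 and Krt18, the epithelial regulators Grhl2 and Esrp1, and the forkhead factors Foxa1 and Foxa2. They were chosen by name, with earlier results of these arrays known. Every probe set annotated to 1 of them on the array was read, which gave 16 probe sets of 45037 tested, and 10 genes of 18193. Of the 16, 12 probe sets that cover all 10 genes were called lower in sorted Pax3-GFP+ cells than in GFP- cells of the same region. Among all probe sets 3.24% were called lower in GFP/+ cells and 3.36% in PAX3-FKHR/GFP cells, the GFP+ groups described below. Epcam and Grhl2 are covered by only 1 of their probe sets each, and their other probe sets were not called.

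There were 3 groups of 3 samples. The first was GFP+ cells of PAX3-FKHR/GFP embryos, in which 1 Pax3 allele carries GFP and the other produces PAX3-FKHR, the fusion of the DNA binding part of PAX3 with the activation domain of the forkhead factor FKHR, from a conditional knock-in with an IRESnlacZ reporter that was recombined by PGK-Cre, a broadly active Cre transgene. GFP+ cells of GFP/+ embryos, with 1 GFP allele and 1 intact Pax3 allele, formed the second group, and GFP- cells formed the third, whose Pax3 genotype is not in the labels. The study's text mostly takes these cells from GFP/+ embryos but in its list of hybridized material names wild-type embryos, so that comparisons with GFP- cells may also cross genotypes. Embryos of 1 genotype were pooled before sorting, so that a sample stands for a pool and not for an animal. Spread between such pools is all that the p-values take into account.

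The arrays were alike in brightness (medians of 4.63 to 4.68, log2), and within a group r was 0.996 or higher over all probe sets. The sort was visible in its own gene: Pax3 read 8.25, 8.31 and 8.30 in PAX3-FKHR/GFP cells and 9.06, 9.29 and 9.24 in GFP/+ cells, against 4.48, 4.82 and 4.20 in GFP- cells, on the log2 scale. Which of the alleles its probe set reads was not tested. All 9 measured genes of a dermomyotome list and all 5 of a neural crest list were called higher in GFP/+ than in GFP- cells, a call made for 1.92% of all genes, and the study allows that some neural crest cells entered the dissected tissue. Dmrt2, a dermomyotome transcription factor, rose by 5.64 ± 0.11 (SE) on the log2 scale and Sox10, a neural crest factor, by 3.43 ± 0.09. GFP- cells were a mixture, in which globin genes of primitive red cells were among the transcripts that stood highest against the sorted cells. In such bulk samples, fewer cells of a type and less RNA per cell cannot be told apart.

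Epithelial cells hold to each other through Cdh1 (E-cadherin) and the adhesion protein Epcam, seal the space between them with claudins, and carry a cytoskeleton of simple keratins, of which Krt8 and Krt18 assemble as partners. Grhl2, a Grainyhead factor, activates junction genes, Esrp1 directs splicing of epithelial isoforms, and Foxa1 and Foxa2 open chromatin at genes of endoderm, while Foxa2 is also a factor of notochord and floor plate. The dermomyotome is an epithelium too, but it is held together mainly by N-cadherin, and its neighbours in the trunk include the surface ectoderm, the gut endoderm, the notochord and the nephric duct. Snail and Zeb factors, zinc finger repressors of epithelial genes, bind the E-box CACCTG, which reads CAGGTG on the other strand.

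Sequences before and around the start sites of the members (250 bases before to 50 after the start, RefSeq, build GRCm38.p6) were looked up, and 10 windows of 7 of the 10 genes were found. Cdh1, Esrp1 and Grhl2 had none. The windows of 4 members that were lower in GFP+ cells are shown because each holds the E-box named above, printed in capitals. They lie at chr15:102004293-102004592 on the minus strand (Krt8), chr15:102027966-102028265 on the plus strand (Krt18), chr17:87635729-87636028 on the plus strand (Epcam) and chr11:69965171-69965470 on the plus strand (the second of the 2 Cldn7 windows).
Krt8: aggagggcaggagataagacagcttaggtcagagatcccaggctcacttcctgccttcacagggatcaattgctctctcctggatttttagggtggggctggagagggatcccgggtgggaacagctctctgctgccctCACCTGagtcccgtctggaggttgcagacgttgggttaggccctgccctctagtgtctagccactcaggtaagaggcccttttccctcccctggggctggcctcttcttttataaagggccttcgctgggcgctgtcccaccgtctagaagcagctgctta
Krt18: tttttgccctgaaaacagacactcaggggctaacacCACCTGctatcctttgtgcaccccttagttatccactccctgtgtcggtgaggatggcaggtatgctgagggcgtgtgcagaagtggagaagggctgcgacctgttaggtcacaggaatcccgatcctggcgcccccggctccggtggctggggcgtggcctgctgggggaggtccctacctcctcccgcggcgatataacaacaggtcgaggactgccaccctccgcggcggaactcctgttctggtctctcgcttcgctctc
Epcam: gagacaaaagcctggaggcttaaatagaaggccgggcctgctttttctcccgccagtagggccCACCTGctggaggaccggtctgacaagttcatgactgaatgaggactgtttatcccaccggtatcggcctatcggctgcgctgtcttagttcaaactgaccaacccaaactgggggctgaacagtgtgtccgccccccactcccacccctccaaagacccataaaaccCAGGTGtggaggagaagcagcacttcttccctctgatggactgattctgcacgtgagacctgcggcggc
Cldn7: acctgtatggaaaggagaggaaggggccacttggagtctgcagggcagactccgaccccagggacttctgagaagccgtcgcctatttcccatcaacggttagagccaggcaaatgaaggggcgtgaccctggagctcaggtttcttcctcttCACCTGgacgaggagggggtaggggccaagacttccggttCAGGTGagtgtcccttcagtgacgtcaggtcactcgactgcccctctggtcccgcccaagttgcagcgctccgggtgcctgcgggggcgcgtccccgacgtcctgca
The match began at base -111 in Krt8 and at -214 in Krt18, counted from the start site as +1. Epcam held matches at -187 and -19, and Cldn7 at -97 and -57. Of the others, Cldn6 held the E-box at -93 and 41 and Foxa1 at -23, whereas the 3 Foxa2 windows held none. In all, 6 of 7 member genes with a window had the motif, against 22.6% of 27025 genes with one, and by window the counts were 6 of 10 against 20.2% of 32851. These are matches of 6 letters, read on both strands, and no factor binding was measured.

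Of 12 further motifs searched on both strands of these windows, the Grainyhead letters AACCGGTT and AACCNGTT were in none of the 7 genes, against 0.174% and 2.35% of all genes. The second spelling includes the first. The GC box GGGCGG was in 5 of 7 (38.2% of all genes), the TATA box TATAAA in Krt8 and Foxa2 (15.7%), GCCNNNGGC, an AP-2 motif, in Krt18 and Foxa2 (18.5%), and GGAATG, a TEAD motif, in Cldn6 and Cldn7 (16.6%). The forkhead letters TGTTTAC were found in Foxa1 alone (4.05%) and the ETS letters CCGGAAGT in Cldn7 alone (4.31%). No member window held TGTTTGC (5.76%), the KLF letters CCACACCC (4.09%), the AP-1 letters TGACTCA (5.95%) or the HNF1 motif (0.0111%). Some of these letters can overlap each other in a window.

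The comparison of GFP/+ with GFP- cells asks which transcripts distinguish Pax3-GFP+ cells from the other cells of the dissected region. The epithelial genes were lower in GFP/+ cells, by 2.47-fold for Grhl2 up to 23.5-fold for Foxa1, as measured. Of the 16 probe sets 12 were called lower and 0 higher, at an adjusted p under 0.05 and a log2 difference of at least 0.5 in limma, against 3.24% of all probe sets called lower. The same 12 had GFP/+ values wholly below the GFP- values, which held for 11% of all probe sets. The median log2 difference was -3.64 over the 16 and 0.02 over all probe sets, and 10 of the 16 were among the 67 lowest of the 45037. Because the genes were named with earlier results of these arrays known, these counts describe them and do not single them out.

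**Figure D1:**
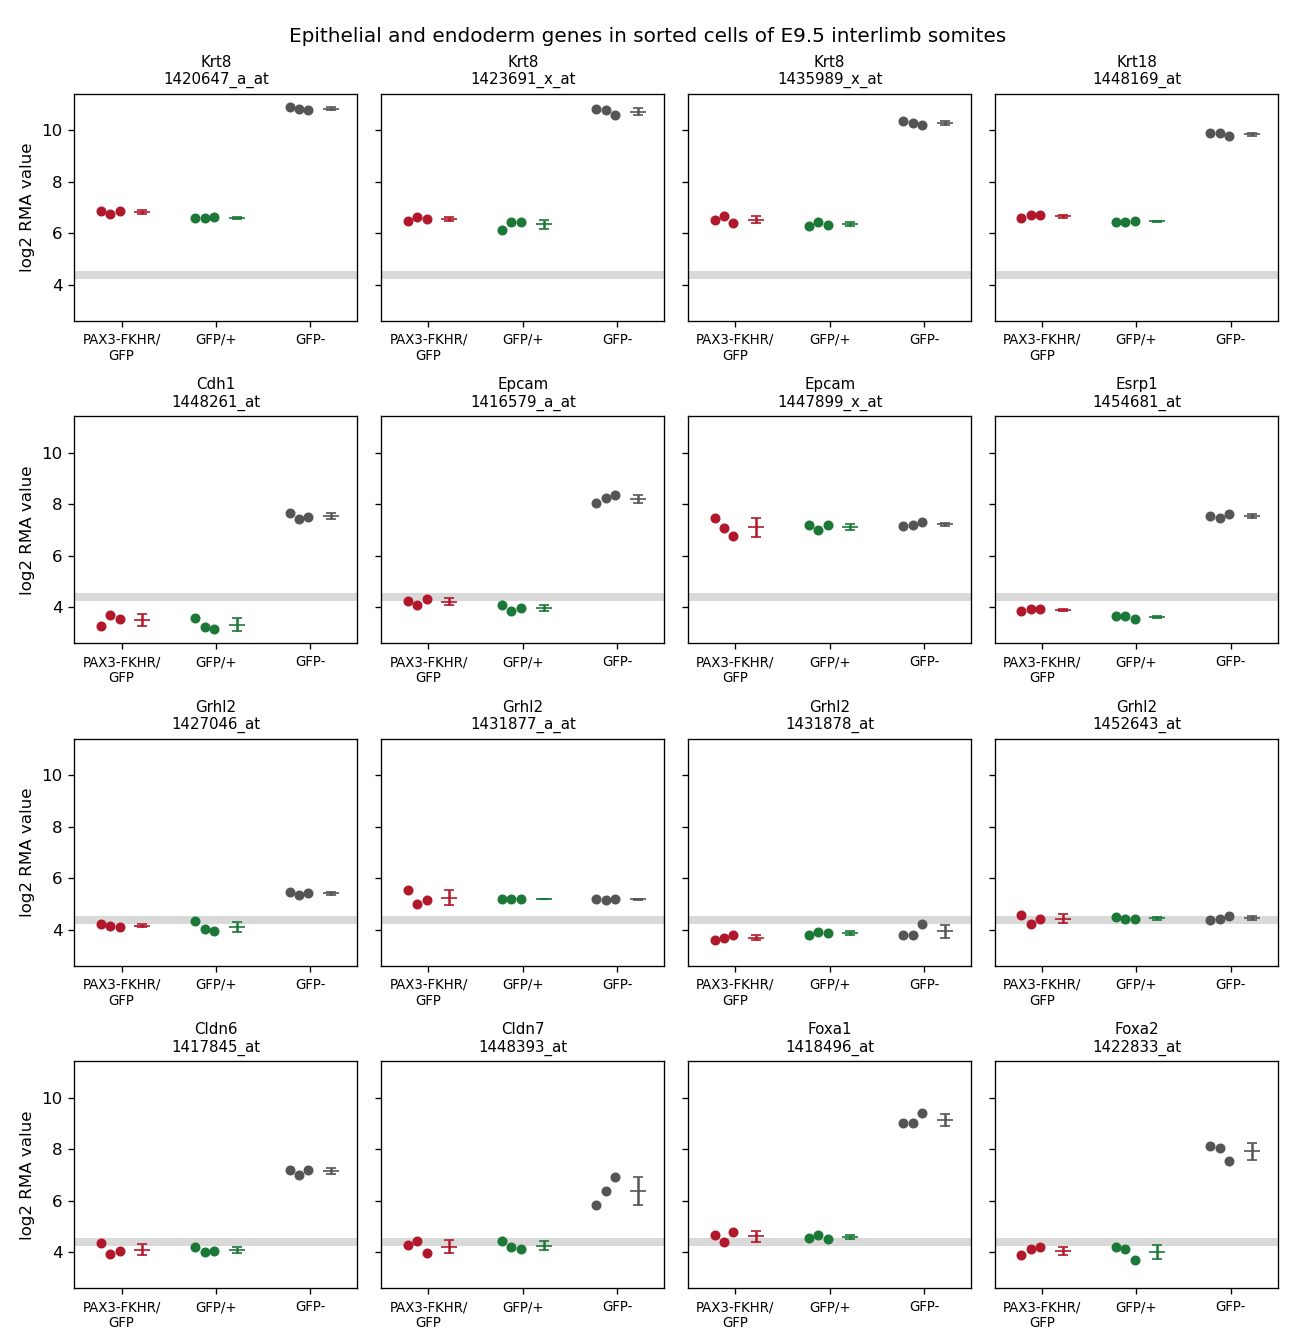
Log2 RMA values (vertical axis) of the 16 probe sets of the 10 genes, 1 panel each, in PAX3-FKHR/GFP, GFP/+ and GFP- cells. Points are the 3 samples, the dash and bar beside them are mean and SD, and the grey band spans 4.23 to 4.55, the 95th percentile of 44 olfactory receptor probe sets on the 9 arrays; in 12 panels the GFP- samples sit above both GFP+ groups, and in 4 the groups overlap.

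Epcam has 2 probe sets, and they differ. Probe set 1416579_a_at read 4.26, 4.09 and 4.32 in PAX3-FKHR/GFP cells and 4.10, 3.86 and 3.96 in GFP/+ cells, against 8.04, 8.23 and 8.34 in GFP- cells. Both GFP+ groups lay far below the GFP- samples, and the difference of GFP/+ from GFP- cells was -4.23 ± 0.10 (SE, log2), or 18.8-fold lower (adjusted p = 2.95e-09, limma), with the GFP/+ values in the range of dim signal. Probe set 1447899_x_at, by contrast, read 7.45, 7.08 and 6.75 in PAX3-FKHR/GFP cells and 7.20, 6.99 and 7.18 in GFP/+ cells, against 7.17, 7.18 and 7.29 in GFP- cells. Here all 3 groups overlapped, and the difference of GFP/+ from GFP- cells was -0.09 with a 95% interval of -0.27 to 0.08. The suffix x marks probe sets of which some probes can match other transcripts, and which transcript the second set reads was not tested. With the Epcam probe sets averaged the difference became -2.16 on the log2 scale.

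Cdh1, the cadherin of epithelial adherens junctions, stood 18.4-fold lower in GFP/+ cells, with a log2 difference of -4.20 ± 0.12 from GFP- cells and an adjusted p of 1.36e-08. Its values were 3.27, 3.71 and 3.57 in PAX3-FKHR/GFP cells and 3.60, 3.24 and 3.15 in GFP/+ cells, against 7.66, 7.44 and 7.50 in GFP- cells. The PAX3-FKHR/GFP and GFP/+ samples overlapped, and all 6 lay below the 95th percentile of olfactory receptor probe sets on their arrays, a set of 44 that served as a rough mark of dim signal. Probe sets differ in how brightly they read, so this mark is no detection call.

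Both claudins were lower in GFP/+ cells. Cldn6, a tight junction protein of early embryonic epithelia, read 4.35, 3.92 and 4.05 in PAX3-FKHR/GFP cells and 4.21, 4.02 and 4.05 in GFP/+ cells, against 7.21, 7.01 and 7.20 in GFP- cells. That was a log2 difference of -3.04 ± 0.09 between GFP/+ and GFP- cells, 8.24-fold lower, and no GFP+ sample exceeded the dim mark. Cldn7 read 4.28, 4.43 and 3.97 in PAX3-FKHR/GFP cells and 4.45, 4.20 and 4.14 in GFP/+ cells, against 5.84, 6.36 and 6.93 in GFP- cells. Its GFP- samples were the most uneven of any member (6.38 ± 0.55, SD, n = 3), but the lowest of them still lay above every GFP+ sample, and GFP/+ cells were 4.32-fold lower (log2 difference -2.11 ± 0.22, adjusted p = 0.000173).

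Krt8 and Krt18, unlike the junction genes, remained above the dim mark in all 9 samples. Krt8 is read by 3 probe sets. Probe set 1420647_a_at gave 6.86, 6.75 and 6.88 in PAX3-FKHR/GFP cells and 6.58, 6.58 and 6.61 in GFP/+ cells, against 10.89, 10.83 and 10.78 in GFP- cells. The groups did not overlap, and GFP/+ cells were 18.9-fold lower than GFP- cells (log2 difference -4.24 ± 0.05, adjusted p = 7.72e-11). The other 2, 1423691_x_at and 1435989_x_at, gave differences of -4.38 ± 0.10 and -3.91 ± 0.07, so the 3 agreed in direction and came within 0.5 log2 of each other.

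Krt18, its partner, read 6.58, 6.69 and 6.69 in PAX3-FKHR/GFP cells and 6.45, 6.44 and 6.49 in GFP/+ cells, against 9.87, 9.88 and 9.78 in GFP- cells. It stood 10.4-fold below the GFP- level in GFP/+ cells, a log2 difference of -3.38 ± 0.06 with an adjusted p of 4.78e-10. PAX3-FKHR/GFP samples lay slightly above the GFP/+ samples in Krt18 and in 2 of the 3 Krt8 probe sets, and overlapped with them in 1435989_x_at.

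Grhl2 was read by 4 probe sets, of which 1 was called. Probe set 1427046_at read 4.22, 4.14 and 4.12 in PAX3-FKHR/GFP cells and 4.33, 4.03 and 3.95 in GFP/+ cells, against 5.47, 5.35 and 5.42 in GFP- cells. GFP- samples alone exceeded the dim mark, and the difference of GFP/+ from GFP- cells was -1.31 ± 0.11, or 2.47-fold lower (adjusted p = 2.53e-05). Probe set 1431877_a_at read 5.56, 5.01 and 5.15 in PAX3-FKHR/GFP cells and 5.18 in each GFP/+ sample, against 5.18, 5.17 and 5.20 in GFP- cells. Its 3 GFP/+ values were identical to the last deposited decimal, and its difference from GFP- cells was -0.00047 with a 95% interval of -0.16 to 0.16. The other 2 differed by -0.07 (1431878_at) and -0.0046 (1452643_at), and neither exceeded the dim mark on a GFP- array. With all 4 averaged, Grhl2 differed by -0.35 on the log2 scale and was no longer called.

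Esrp1, the splicing regulator, was 15.1-fold lower in GFP/+ than in GFP- cells. It read 3.86, 3.92 and 3.92 in PAX3-FKHR/GFP cells and 3.66, 3.65 and 3.56 in GFP/+ cells, against 7.55, 7.48 and 7.61 in GFP- cells. The log2 difference between GFP/+ and GFP- cells was -3.92 ± 0.08 (adjusted p = 1e-09), and all 6 GFP+ samples lay below the dim mark.

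The forkhead factors showed the same order of groups. Foxa1, a factor of endoderm and of its epithelial derivatives, read 4.67, 4.39 and 4.80 in PAX3-FKHR/GFP cells and 4.55, 4.66 and 4.52 in GFP/+ cells, against 9.02, 9.0 and 9.39 in GFP- cells. Its log2 difference between GFP/+ and GFP- cells, -4.56 ± 0.11, had an adjusted p of 2.95e-09, and 5 of the 6 GFP+ samples stood just above the dim mark. It was the largest measured among the 16, but those of Cdh1, Epcam (1416579_a_at), Esrp1 and Foxa2 have GFP/+ values below that mark and may be understated. The GFP/+ values of Foxa1 lie near the mark, so its difference may be understated too. Foxa2 read 3.89, 4.11 and 4.19 in PAX3-FKHR/GFP cells and 4.20, 4.11 and 3.71 in GFP/+ cells, against 8.12, 8.06 and 7.55 in GFP- cells. It was 14.9-fold lower in GFP/+ than in GFP- cells (log2 difference -3.90 ± 0.17, adjusted p = 2.17e-07), with GFP+ samples all below the dim mark.

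**Figure D2:**
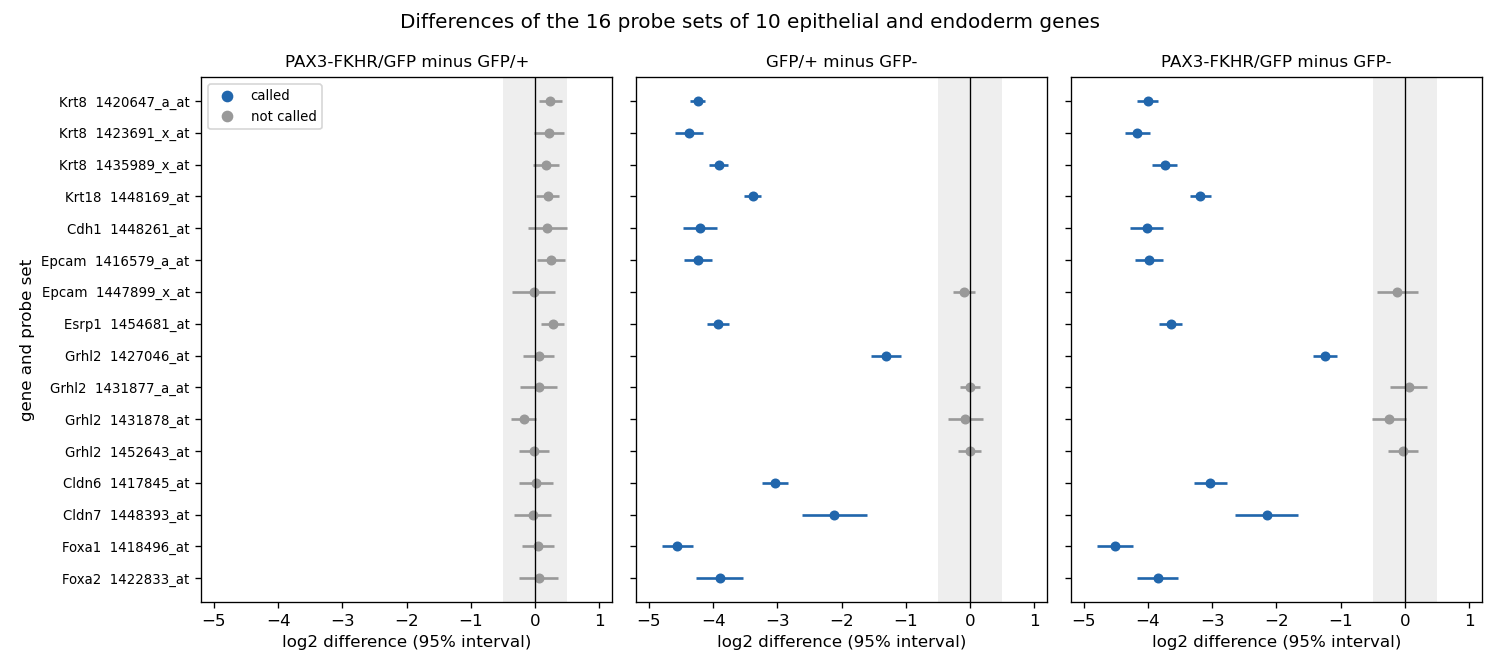
Log2 differences with 95% intervals (horizontal axis) of the 16 probe sets for PAX3-FKHR/GFP minus GFP/+, GFP/+ minus GFP-, and PAX3-FKHR/GFP minus GFP-, with called probe sets in blue, the others in grey, and the range from -0.5 to 0.5 shaded. The same 12 probe sets lie left of the shaded range in both panels with GFP- cells, and all 16 intervals lie inside it in the panel of PAX3-FKHR/GFP minus GFP/+.

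Lower levels in Pax3-GFP+ cells were also measured in PAX3-FKHR/GFP cells, where the same 12 of 16 probe sets were called lower than in GFP- cells (3.36% of all probe sets) and again did not overlap with them (10.6% of all). The differences were -4.51 ± 0.13 for Foxa1, -4.02 ± 0.12 for Cdh1, -4.00 ± 0.07 for Krt8 (1420647_a_at), -3.98 ± 0.10 for Epcam (1416579_a_at) and -3.85 ± 0.14 for Foxa2 on the log2 scale. Esrp1 followed at -3.65 ± 0.08, Krt18 at -3.19 ± 0.07, Cldn6 at -3.03 ± 0.12, Cldn7 at -2.15 ± 0.22 and Grhl2 (1427046_at) at -1.25 ± 0.09. This comparison shares its GFP- samples with that of GFP/+ cells, so the pair are not independent of each other.

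PAX3-FKHR/GFP cells were also compared with GFP/+ cells. These groups differ in the fusion protein and in the intact Pax3 allele that GFP/+ cells alone keep, and the effects of these cannot be told apart here. None of the 16 probe sets was called in limma, against 1.36% of all probe sets, and 0 were called by the local pooled error test. Unadjusted p-values under 0.05 were found for 4, all higher in PAX3-FKHR/GFP cells, against 10.1% of all probe sets in either direction. These were Esrp1 (0.28 ± 0.08, adjusted p = 0.175), Epcam 1416579_a_at (0.25 ± 0.10, adjusted p = 0.425), Krt8 1420647_a_at (0.24 ± 0.08, adjusted p = 0.260) and Krt18 (0.20 ± 0.08, adjusted p = 0.418), as log2 differences.

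PAX3-FKHR/GFP values lay wholly above GFP/+ values in 4 probe sets, namely those of Krt18 and Esrp1 and the Krt8 sets 1420647_a_at and 1423691_x_at, against 6.4% of all probe sets. Wholly below there were 0. Over the 16 the log2 difference was above 0 in 12 and had a median of 0.06, against -0.004 over all probe sets. Every 95% interval lay between -0.37 (Grhl2 1431878_at) and 0.49 (Cdh1), and so inside the log2 limit of 0.5 in either direction. Members near or below the dim mark in both GFP+ groups ranged from -0.18 (Grhl2 1431878_at) to 0.28 (Esrp1). Between these lay Cldn7 (-0.04), Cdh1 (0.19) and Epcam 1416579_a_at (0.25), among others.

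Red cell transcripts moved the same way in that comparison. Of 5 measured genes of a primitive erythroid list all 5 differences were above 0, 3 of the 5 lay wholly above GFP/+ values (7.67% of all genes), and 1 was called (2.02% of all genes), Hbb-y, an embryonic beta globin (0.65 ± 0.09, adjusted p = 0.0041), a call that needed PAX3-FKHR/GFP replicate 2 (0.61 without it) and GFP/+ replicates 2 (0.63) and 3 (0.65). Their mean log2 value lay between 7.04 and 7.11 in PAX3-FKHR/GFP samples and between 6.70 and 6.81 in GFP/+ samples, against 11.5 to 11.6 in GFP- samples. Neural crest genes, likewise, had a median difference of 0.28, with Tfap2b called (0.59 ± 0.08), though not without GFP/+ replicate 2 (0.58) or 3 (0.58). The dermomyotome list had the largest median of the lists, 0.53, with 4 of 9 genes called higher and 2 lower. Medians of the neural tube and endothelial lists were below 0: neural tube genes had -0.09, with Neurog2 (-0.78 ± 0.13) and Pax6 (-0.74 ± 0.09) called lower, and endothelial genes -0.07 with 0 of 6 called, while Spon1 of notochord and floor plate was lower (-1.03 ± 0.10). Of these calls, that of Neurog2 was lost without GFP/+ replicate 1 (-0.79), 2 (-0.76) or 3 (-0.77), and those of Pax6 and Spon1 with probe sets averaged (-0.19 and -0.46). The part of other cell types in the small differences of Krt8, Krt18, Esrp1 and Epcam was not tested.

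Each gene in the lists that follow was read from 1 probe set, its brightest over the 9 arrays. For Epcam and Grhl2 that rule takes the flat probe sets 1447899_x_at and 1431877_a_at, so that 8 of the 10 members counted as lower in GFP/+ cells and 8 in PAX3-FKHR/GFP cells, each against GFP- cells. Among all genes 5.05% and 5.2% were called lower in these comparisons. Averaging a gene's probe sets instead removed the calls of Spon1 (-0.12), Fn1 (-0.32) and Grhl2 1427046_at (-0.35) between GFP/+ and GFP- cells. It kept the calls of the genes that follow but shrank their log2 differences by over 1.5 times. These were Dsg2 (-1.80), Trp63 (-0.86), Tfap2c (-0.84), Gata6 (-2.09), Gata4 (-0.97), Shh (-2.06) and Sox10 (1.45), whose single probe sets are given here. Cdh5 and Ntn1 shrank likewise.

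Other parts of the epithelial programme were lower in GFP/+ than in GFP- cells as well, a call made for 5.05% of all genes. In a list of keratins and epithelial adhesion genes 13 of 21 were lower and 0 higher, with a median log2 difference of -0.59, against 0.01 over all genes. The largest was Dsg2, a desmosomal cadherin (-4.17 ± 0.12), followed by Perp, a desmosome-associated membrane protein (-3.21 ± 0.10), Krt19 (-3.15 ± 0.16) and Krt7 (-2.79 ± 0.09). Of 18 epithelial regulators and trafficking genes 8 were lower and 0 higher, with the membrane protease Prss8 at -2.45 ± 0.14, the protease inhibitor Spint1 at -2.44 ± 0.10, the protease St14 at -1.95 ± 0.17 and Ap1m2, an adaptor subunit of epithelial sorting, at -1.65 ± 0.12.

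Most other claudins were not called between GFP/+ and GFP- cells, but lower calls were more frequent than among all genes. Of 18 measured genes of the family beyond the 2 members 4 (22.2%) were lower and 0 higher, against 5.05% of all genes called lower. The median log2 difference was -0.11. Cldn8 stood at -1.30 ± 0.09, Cldn3 at -0.92 ± 0.08, Cldn13 at -0.91 ± 0.11 and Cldn4 at -0.87 ± 0.10, each smaller in size than the differences of Cldn6 and Cldn7.

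Some markers of both germ layers named above were lower in GFP/+ cells, a call made for 5.05% of all genes. More were not called, 6 in the surface ectoderm list and 9 in the endoderm list. The highest log2 differences from GFP- cells were 0.06 in the first list and 0.21 in the second. In the surface ectoderm list 5 of 11 were lower and 0 higher, led by Trp63, the p63 factor of stratified epithelium (-3.26 ± 0.09), with Tfap2c, a factor that neural crest also uses, at -1.56 ± 0.09, Krt15 at -1.23 ± 0.10 and Krt5 at -0.58 ± 0.08. The Krt5 call was lost at a fold limit of 1.5. In the endoderm list 7 of 16 were lower and 0 higher, led by Gata6, a zinc finger factor of endoderm and heart (-4.22 ± 0.07), Afp (-3.07 ± 0.13), the retinol carrier Rbp4 (-2.36 ± 0.10) and Gata4 (-2.02 ± 0.09).

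Foxa2 also marks notochord and floor plate, and of 5 measured genes of that list 2 were lower and 1 higher in GFP/+ cells. Among all genes 5.05% were called lower and 1.92% higher. Shh, the signal secreted by both, read 6.88, 6.92 and 6.44 in PAX3-FKHR/GFP cells and 6.49, 6.87 and 6.92 in GFP/+ cells, against 10.65, 10.87 and 10.94 in GFP- cells (-4.06 ± 0.12 between GFP/+ and GFP- cells). Spon1 was lower by little (-0.52 ± 0.06) and its call was lost without GFP/+ replicate 2 (-0.50) or GFP- replicate 3 (-0.49), in the local pooled error test (-0.48), at a fold limit of 1.5 and with its probe sets averaged (-0.12). Ntn1, a guidance cue, was higher (1.36 ± 0.17, and 0.71 as an average of probe sets). Shh and Foxa2 were thus high in the same 3 samples as the endoderm and ectoderm genes, and which tissue their transcripts came from cannot be told apart in these arrays.

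**Figure D3:**
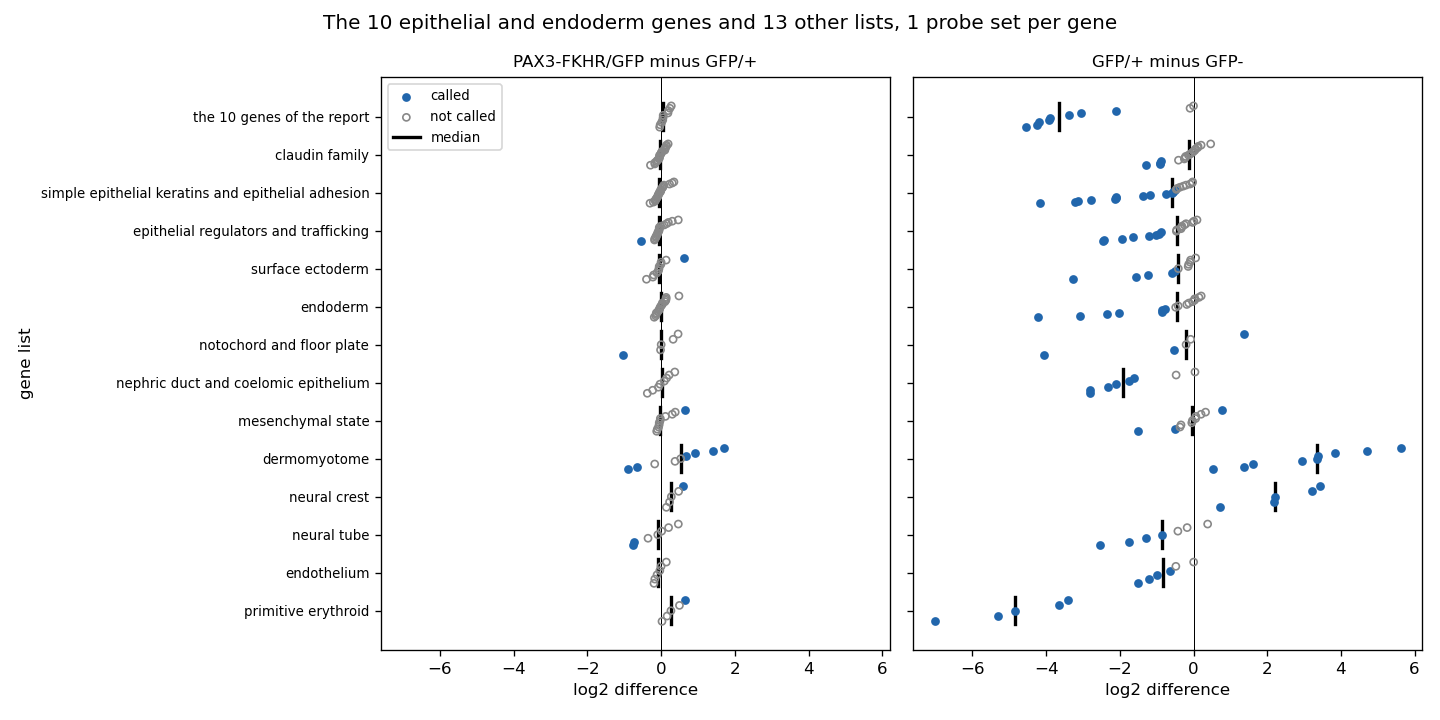
Log2 differences (horizontal axis) of the genes of the 10-gene set and of 13 other lists, 1 probe set per gene, for PAX3-FKHR/GFP minus GFP/+ (left) and GFP/+ minus GFP- (right). Filled points are called genes, open points are not called, and black bars are medians; the median of the 10 genes is -3.64 in the right panel and 0.05 in the left.

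Set against GFP- cells, PAX3-FKHR/GFP cells had 13 of 21 keratin and adhesion genes, 10 of 18 regulators, 5 of 18 claudins, 6 of 11 surface ectoderm genes and 8 of 16 endoderm genes called lower. Among all genes 5.2% were called lower. Called higher were 0 genes of these lists other than Cldn1, a claudin of skin and other epithelia (0.61 ± 0.09), which is named after its value was seen, against 2.63% of all genes. Cldn1 read 4.32, 4.44 and 4.48 in PAX3-FKHR/GFP cells and 4.37, 4.25 and 4.18 in GFP/+ cells, against 3.78, 3.75 and 3.87 in GFP- cells. These values lie near or below the dim mark, and GFP/+ cells differed from GFP- cells by 0.47, under the limit of 0.5. Between PAX3-FKHR/GFP and GFP/+ cells these 5 lists had medians between -0.06 and -0.01 on the log2 scale, and 2 of their 84 genes were called, a rate of 2.38% beside the 2.02% of all genes. One was Arhgef16 (-0.53 ± 0.11, adjusted p = 0.0344), which read 4.45, 4.84 and 4.64 in PAX3-FKHR/GFP cells, against 5.17, 5.18 and 5.18 in GFP/+ cells. The other was Tfap2c (0.61 ± 0.11, adjusted p = 0.0224), which read 6.68, 7.07 and 6.98 in PAX3-FKHR/GFP cells, against 6.21, 6.22 and 6.46 in GFP/+ cells. Neither gene's groups overlapped. The call of Arhgef16 disappeared on leaving out replicate 1 or 3 of PAX3-FKHR/GFP or any GFP/+ replicate (adjusted p of 0.0863 to 0.169), in the local pooled error test (adjusted p = 0.127), with the replicate block (adjusted p = 0.0517) and at a fold limit of 1.5. That of Tfap2c disappeared on leaving out replicate 2 or 3 of PAX3-FKHR/GFP or any GFP/+ replicate (adjusted p of 0.0535 to 0.174), and with the gene's probe sets averaged (0.32).

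Genes of the mesenchymal state were called in both directions between GFP/+ and GFP- cells, where 5.05% of all genes were called lower and 1.92% higher. Of 11 mesenchymal genes 2 were lower in GFP/+ than in GFP- cells, Prrx1 (-1.51 ± 0.06) and Fn1 (-0.51 ± 0.05), and 1 was higher, Zeb2 (0.78 ± 0.07). The other Snail and Zeb factors of the list, given after their values were seen, were not called: Zeb1 differed by -0.03 ± 0.06, Snai1 by 0.21 ± 0.11 and Snai2 by -0.05 ± 0.06. The Fn1 call was lost without GFP- replicate 1 (-0.49) or GFP- replicate 3 (-0.49), at a fold limit of 1.5 and with its probe sets averaged (-0.32). Zeb2 read 8.83, 8.89 and 8.91 in PAX3-FKHR/GFP cells and 8.83, 9.04 and 8.97 in GFP/+ cells, against 8.21, 8.21 and 8.08 in GFP- cells. The list's median difference was -0.03.

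The members followed each other across the 9 samples. Pearson's r of each with the mean of the other 9 lay between 0.959 (Cldn7) and 0.999 (Esrp1), apart from Epcam (0.275) and Grhl2 (-0.0854), which were read here from their flat probe sets. Outside the 10, the genes most like their mean, among 1114 with a range of at least 1 log2 unit, were Cdcp1 (r = 0.999), Hba-x, Ripk4, St18, Gpr50 and Amph. Hba-x is an embryonic alpha globin of red cells, Ripk4 a kinase of epidermis and St18 a zinc finger factor, so genes of unlike cell types shared the pattern. For Foxa2 alone the nearest were Ifi35 (r = 0.998), Spint1, Rap1gap2, Mapk13, Nepn and Mt1. These values describe 9 arrays that stand at a low level in 6 samples and a high level in 3, with all probe sets of a sample read from the same hybridization.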

How the data were processed

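Somite tissue was dissociated, sorted by GFP fluorescence, and its RNA amplified by a two-cycle 3′ protocol and hybridized to Affymetrix mouse arrays. The treatment label speaks of forelimb buds, whereas title, source and tissue give interlimb somites. Mice were of mixed C57BL6/DBA2 background. The authors deposited log2 values from RMA (Robust Multichip Analysis: background correction, quantile normalization and summary by probe set). Its version, and the set of arrays it was run on, are not stated in the sources read here. Quantile normalization would hide a shift of all transcripts. The study discarded probe sets called absent, which was not done here.

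Of 45101 probe sets 64 Affymetrix controls were left out. Of the rest 34945 had 1 symbol in the platform annotation, 932 several and 9160 none. Each comparison was fitted on its 6 samples with limma 3.58.1 in R 4.3.3 (lmFit, eBayes with intensity trend), two-sided, with Benjamini-Hochberg adjustment over 45037 probe sets. Calls required an adjusted p under 0.05 and 0.5 or more on the log2 scale in either direction. The study's methods use the same adjusted limit and a fold of 1.5, which they equate with a log2 ratio of 0.5. A log2 limit of 0.5 is 1.41-fold, so a fold limit of 1.5 is stricter. The study's local pooled error test, rewritten from the published description, was an alternative. So were other fits, filters, scalings and fold limits, 1.5 among them, the mean of a gene's probe sets and each sample left out. The scripts were tested on simulated data. Precision is limited by 3 arrays per group. Whether replicate numbers pair samples was checked: deviations of equally numbered samples correlated at -0.10 to 0.10, so no pairing was assumed.

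The members and the 13 other lists (claudins, keratins and adhesion, epithelial regulators, surface ectoderm, endoderm, notochord and floor plate, nephric and coelomic epithelium, mesenchymal state, dermomyotome, neural crest, neural tube, endothelium and primitive erythroid cells) were chosen with earlier results of these data known. Of 150 written symbols 140 were measured. Named are all members, up to 4 called genes per list and comparison with the largest difference, or 2 where none was called, from which the text takes those that bear on the members, and the 6 genes of highest likeness. Plots were drawn with matplotlib 3.10.9.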

Additional observations from a re-analysis of the deposited data

How the results depend on the processing

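Under every alternative that tested single probe sets, 0 of 16 members stayed called between PAX3-FKHR/GFP and GFP/+ cells. In each comparison with GFP- cells the count stayed at 12 of 16, although without dim probe sets fewer members were tested. Under the mean over a gene's probe sets no such count was made. Of 754 values of single member probe sets 4 changed their call and 0 reversed, all 4 under the mean over a gene's probe sets: Epcam 1447899_x_at became called (-2.16 for GFP/+ and -2.05 for PAX3-FKHR/GFP against GFP- cells) and Grhl2 1427046_at was lost (-0.35 and -0.37). Over all named genes, members included, 53 of 2716 values changed their call and 0 reversed. With no fold limit the probe sets called rose to 3947 (GFP/+ against GFP-) and 4029 (PAX3-FKHR/GFP against GFP-), against 2095 and 2411, since small differences then count. Leaving out 1 sample gave 358 to 578 between PAX3-FKHR/GFP and GFP/+ cells, against 611, with the lowest counts without PAX3-FKHR/GFP replicate 2 (358) and, among GFP/+ samples, replicate 2 (383) and replicate 3 (386), and 1963 to 2056 and 2267 to 2455 in the comparisons with GFP- cells. Replicate numbers as a block gave 603, 2122 and 2451 calls and left the counts of members as they were, while of the other named genes Arhgef16 lost its call. Signals at the dim mark limit the folds of Cdh1, Epcam, Cldn6, Cldn7, Esrp1, Foxa1, Foxa2 and Grhl2, which can be understated there.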

Other observations

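Genes of other tissues beside the dermomyotome had values that were also lower in GFP/+ than in GFP- cells, next to those of the epithelial genes. Among all genes 5.05% were called lower in this comparison. In a list of nephric duct and coelomic epithelium 6 of 8 measured genes were called lower and 0 higher, with a median log2 difference of -1.92. Osr1, a factor of intermediate mesoderm, stood at -2.80 ± 0.10 (SE), Upk3b, a uroplakin of mesothelium, at -2.80 ± 0.16, Emx2 at -2.32 ± 0.09 and Gata3, a factor of the nephric duct, at -2.10 ± 0.13. Nephric duct is itself an epithelium that carries Cdh1, Krt8 and Krt18. Of 7 neural tube genes 4 were lower, among them the ventral factors Olig2 (-2.55 ± 0.16) and Nkx2-2 (-1.75 ± 0.15), and of 6 endothelial genes 4 were lower, with Cdh5, the endothelial cadherin, at -1.52 ± 0.13 (-0.75 with its probe sets averaged). All 5 primitive erythroid genes were lower, Hba-x by most (-7.01 ± 0.06). The share of each tissue in the GFP- values of the epithelial genes was not tested.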
